A study of Mus musculus with 4 samples.

Results

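The genes described here mark the cells around small vessels of the injured spinal cord, pericytes and perivascular fibroblasts. There are 10 of them, which the deposited table writes as PDGFRB, RGS5, ACTA2, TAGLN, MCAM, DCN, LUM, BGN, FAP and CD248. They were chosen by name as known markers of these cells, at a time when earlier results of these data were known. All 10 were among the 14127 rows listed at 7 days post injury (dpi) and 9 of the 10 were among the 11474 rows listed at 21 dpi, where Fap was not listed.

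RNA came from spinal cord segments of about 4 mm that held the lesion, taken from male mice after a contusion of 50 kdyne at the level of thoracic vertebra 9. The 4 groups were targeted replacement mice of the ApoE3 or the ApoE4 genotype, each at 7 and 21 dpi. Both lines carry a human ApoE coding region in place of the mouse one, so neither group has mouse ApoE, and no sham or wild-type mice were analysed here. The mice were injured at 3 to 5 months of age, and the methods give 3 mice per genotype and time point. The deposited table, however, holds 1 level per gene and group and not those of single mice, so no spread could be computed and none of the differences below was tested. The authors' own statistics in that table were not used. Values are FPKM (fragments per kilobase of transcript, scaled to the size of the library), a level per length that can be compared between genes. The libraries were down-sampled to a common size, and the number of reads behind each value is not given with it. The methods also report that 1 replicate had a lower share of aligned reads than the others, without naming its group.

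The genotype of each value needs a caution. Each row of the table names its comparison as ApoE3 against ApoE4, and the values were read in that order. The numbers in the column names would pair the values with the genotypes the other way round. Under that second reading, every statement below that a gene was higher in ApoE3 would apply to ApoE4, and the reverse.

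Pericytes wrap the capillary endothelium, and vascular smooth muscle cells take the same place on arterioles. Perivascular fibroblasts lie around larger vessels and in the meninges. After a contusion, cells of these types that carry the receptor Pdgfrb are known to multiply in the lesion core and lay down the matrix of the fibrotic scar. Several of the 10 genes are also used outside these cells: Acta2 and Tagln in smooth muscle, Mcam in endothelium, and Dcn in the meninges and in the sheaths of peripheral nerves.

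Markers of the cord itself were abundant in each group. Mbp, a protein of myelin, had 120571 FPKM in ApoE3 against 127575 in ApoE4 at 7 dpi, and 201348 and 278678 at 21 dpi. Gfap, the filament of astrocytes, had 12395 FPKM in ApoE3 against 12386 in ApoE4 at 7 dpi, and 8201 and 15313 at 21 dpi. The pericyte markers beyond the 10 genes were present as well, with 11 of 12 listed at 7 dpi and 10 of 12 at 21 dpi. The table therefore holds vessel-associated genes, but it cannot show in which cells a shared gene such as Dcn was made.

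Levels differed over a wide range among the 10 genes. At 7 dpi, Bgn was the highest in both genotypes, followed by Rgs5, Mcam and Tagln, and Lum was the lowest. At 21 dpi, Mcam and Rgs5 stood first in both genotypes and Lum last. At this time point 2 of the 9 listed genes were above Dcn in ApoE3 and 6 in ApoE4. With 1 value per group, no spread is known by which neighbours in these orders could be separated.

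**Figure D1:**
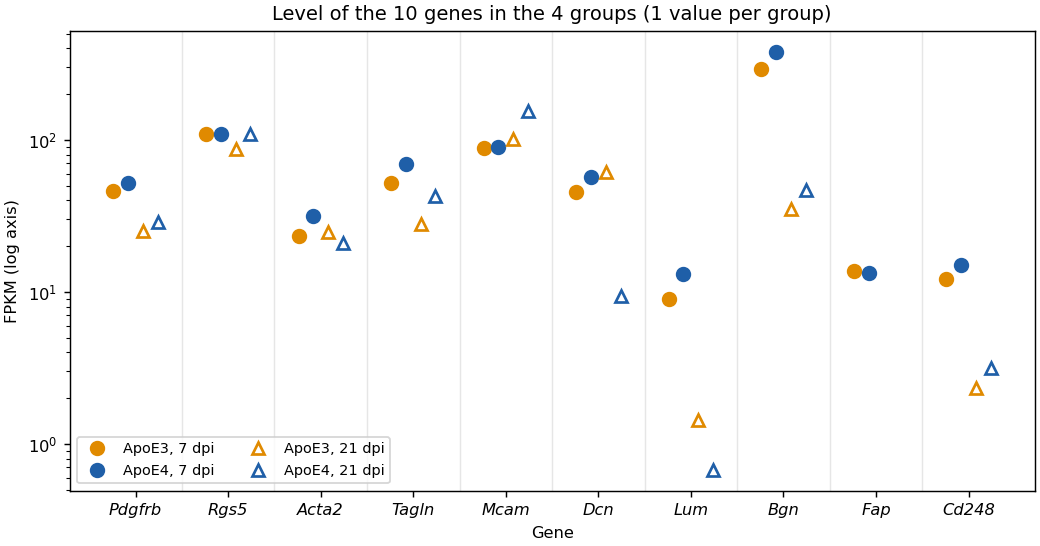
Level in FPKM (log axis) of each of the 10 genes, with 1 point per group: orange for ApoE3, blue for ApoE4, filled circles for 7 dpi and open triangles for 21 dpi. The genotypes lie furthest apart for Dcn at 21 dpi, with 61.9 FPKM in ApoE3 against 9.37 in ApoE4. Fap has no point at 21 dpi because it was not listed.

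Promoter sequences are shown for members that followed different courses in the results that come next. Acta2 had differences of opposite direction at the time points, Bgn had the largest difference over time in ApoE3 among the 9 genes listed at both, and Rgs5 had the smallest difference between genotypes of the 10 at 7 dpi. Each runs from 250 bases before to 50 bases after the start of the gene in RefSeq, build GRCm38.p6, on the gene's strand. They lie at chr19:34255324-34255623 (minus strand) for Acta2, chrX:73483351-73483650 (plus strand) for Bgn and chr1:169655251-169655550 (plus strand) for Rgs5. Of the 10 genes, 4 were found in the promoter table used here. Capitals mark matches to the CArG box, the sequence that serum response factor binds in contractile genes, with at most 1 of its 6 inner letters being G or C. The box reads alike on both strands.
Acta2: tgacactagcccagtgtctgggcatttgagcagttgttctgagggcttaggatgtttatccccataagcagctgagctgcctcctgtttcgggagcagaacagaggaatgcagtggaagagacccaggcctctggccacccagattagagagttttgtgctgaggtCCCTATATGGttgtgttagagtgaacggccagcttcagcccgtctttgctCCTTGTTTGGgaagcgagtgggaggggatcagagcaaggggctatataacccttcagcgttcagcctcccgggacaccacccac
Bgn: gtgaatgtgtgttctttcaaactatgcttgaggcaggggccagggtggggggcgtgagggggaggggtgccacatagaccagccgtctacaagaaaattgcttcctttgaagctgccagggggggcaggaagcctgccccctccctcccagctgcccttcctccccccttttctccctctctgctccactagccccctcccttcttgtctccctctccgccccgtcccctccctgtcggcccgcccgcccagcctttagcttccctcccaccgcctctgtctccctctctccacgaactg
Rgs5: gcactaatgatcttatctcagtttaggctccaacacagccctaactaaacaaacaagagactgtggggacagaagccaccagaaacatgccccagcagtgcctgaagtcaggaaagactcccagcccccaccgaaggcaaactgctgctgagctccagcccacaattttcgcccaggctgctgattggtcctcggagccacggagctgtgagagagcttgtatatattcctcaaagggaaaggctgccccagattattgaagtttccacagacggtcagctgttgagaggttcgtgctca

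The Acta2 promoter held 2 matches, which began at -84 and -34 relative to the start of the gene. Those of Bgn, Rgs5 and Mcam held 0 in this window. Of 27025 promoters of the same length, 9.998% held at least 1 match and 0.836% held at least 2. A match describes the letters of the sequence and says nothing by itself about binding or about the levels measured here.

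The first comparison asked how ApoE3 and ApoE4 lesions differed at 7 dpi. The matrix gene Lum and the contractile genes Acta2 and Tagln were lower in ApoE3, by up to 1.41-fold, and the pericyte genes Rgs5 and Mcam had nearly the same level in both genotypes. Differences are given as log2((FPKM ApoE3 + 1)/(FPKM ApoE4 + 1)), so a negative value means lower in ApoE3, and a gene was counted as past the threshold at 1.3-fold or more on this scale. By this rule 3 of the 10 were lower in ApoE3, namely Lum, Acta2 and Tagln, and 0 were higher. Among all 14127 rows, 4.76% were lower in ApoE3 by this rule and 3.78% were higher. The log2 difference was below 0 for 9 of the 10, with Rgs5 and Mcam close to 0, beside 49.5% of all genes. The median log2 difference of the 10 genes was -0.29, compared to 0.0020 over all genes. In a bulk segment, fewer cells of a type and less RNA per cell cannot be told apart.

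The small leucine-rich proteoglycans are secreted proteins that bind collagen fibrils and set their diameter and spacing. Lum (lumican) had 8.94 FPKM in ApoE3 against 13.0 in ApoE4, a log2 difference of -0.50. Bgn (biglycan), which also signals through Toll-like receptors when shed from matrix, had 294.5 FPKM in ApoE3 against 378 in ApoE4, a log2 difference of -0.36 that lay just within the threshold at 1.28-fold. Dcn (decorin), which also binds TGF-beta, had 45.7 FPKM in ApoE3 against 56.6 in ApoE4, a log2 difference of -0.30. All 3 proteoglycans were thus lower in ApoE3, and of them Lum was past 1.3-fold.

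Among the contractile genes at 7 dpi, Acta2 (smooth muscle actin) had 23.5 FPKM in ApoE3 against 31.6 in ApoE4. Its log2 difference was -0.41. Tagln (transgelin, an actin-binding protein of smooth muscle and myofibroblasts) had 52.4 FPKM in ApoE3 against 69.2 in ApoE4, with a log2 difference of -0.39. These genes were lower in ApoE3 by similar amounts. The actin genes are close in sequence, so reads could be split between Acta2 and its relatives Acta1 and Actg2, and its value is uncertain for that reason.

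The pericyte genes differed less at 7 dpi. Pdgfrb, the receptor that recruits pericytes to vessels, had 45.8 FPKM in ApoE3 against 51.7 in ApoE4, a log2 difference of -0.17. Rgs5, an inhibitor of G protein signaling that is enriched in pericytes, had 108.5 FPKM in ApoE3 against 109.2 in ApoE4. Mcam (CD146), an adhesion molecule of pericytes and endothelium, had 88.7 FPKM in ApoE3 against 89.3 in ApoE4. For Rgs5 and Mcam the log2 difference was -0.0086 and -0.011, near the middle of all genes.

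The remaining members are surface proteins of activated fibroblasts and pericytes. Cd248 (endosialin), a lectin-like receptor of perivascular cells, had 12.2 FPKM in ApoE3 against 15.1 in ApoE4 at 7 dpi, a log2 difference of -0.28. Fap, a cell-surface protease of activated fibroblasts, had 13.7 FPKM in ApoE3 against 13.4 in ApoE4. Its log2 difference of 0.030 made it the single member that was not lower in ApoE3.

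At 21 dpi, Dcn was far higher in ApoE3, with 61.9 FPKM against 9.37 in ApoE4, which is 6.07-fold on the FPKM + 1 scale. Lum was also higher in ApoE3, at a low level. Mcam and Tagln were lower in ApoE3, as were most genes of the table at this time point. Of the 9 listed members, 2 were higher in ApoE3 past 1.3-fold (Dcn and Lum), where 2.02% of all rows were, and 3 were lower (Mcam, Tagln and Bgn), where 58.9% of all rows were. A count of 3 of 9 lower members therefore lies under the background and is not a result about these genes.

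The background at 21 dpi was shifted. The median log2 difference of genes with a mean of at least 1 FPKM was -0.42, and 93.8% of genes lay below 0. Differences are therefore also given relative to this median. On that scale, 3 of the 9 genes were higher in ApoE3 past 1.3-fold (Dcn, Lum and Acta2), beside 7.47% of all rows, and 0 were lower, beside 8.07% of all rows. The median of the 9 genes was -0.32 before and 0.11 after the subtraction, so its direction depends on it. At 7 dpi the subtraction altered no count of the members.

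Dcn had the largest difference of the set at 21 dpi. Its log2 difference was 2.60, or 3.02 relative to the median, and 15 of 11470 genes had a larger positive one. At 7 dpi the difference was -0.30, in the other direction. Dcn was thus the highest proteoglycan of the set at 21 dpi in ApoE3, while in ApoE4 it lay below Bgn.

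Lum lies next to Dcn on chromosome 10 in the RefSeq annotation, where Kera and Epyc, further members of the family, follow it. It had 1.44 FPKM in ApoE3 against 0.675 in ApoE4 at 21 dpi, a log2 difference of 0.55. Kera and Epyc were listed at neither time point. The pseudocount of 1 understates the difference of a gene as low as Lum, which was 0.99 with a pseudocount of 0.1. Bgn, on the X chromosome, had 34.99 FPKM in ApoE3 against 47.1 in ApoE4. Its log2 difference of -0.42 was equal to the shift of the whole table, with 0.0039 left after the median was subtracted.

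The contractile genes, close together at 7 dpi, lay apart at 21 dpi. Acta2 had 24.7 FPKM in ApoE3 against 21.0 in ApoE4, a log2 difference of 0.22, or 0.65 relative to the median. Tagln had 28.0 FPKM in ApoE3 against 42.9 in ApoE4, a log2 difference of -0.60, or -0.17 relative to the median. Acta1, the skeletal muscle actin whose reads could be shared with Acta2, had 2.11 FPKM in ApoE3 against 59.0 in ApoE4, the opposite direction to Acta2.

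Among the pericyte genes at 21 dpi, Mcam had 100.8 FPKM in ApoE3 against 154.7 in ApoE4, a log2 difference of -0.61. Rgs5 had 86.8 FPKM in ApoE3 against 108.6 in ApoE4, a log2 difference of -0.32. Pdgfrb had 25.3 FPKM in ApoE3 against 28.7 in ApoE4, a log2 difference of -0.18. Relative to the median these values were -0.19 for Mcam, 0.10 for Rgs5 and 0.24 for Pdgfrb, all within 1.3-fold. Cd248 had 2.33 FPKM in ApoE3 against 3.14 in ApoE4, a log2 difference of -0.32, or 0.11 relative to the median. Pdgfrb, Rgs5, Mcam and Cd248 were thus all within 1.3-fold once the shift of the table was taken into account.

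Levels at both time points were then set side by side within each genotype. The time points stand in separate comparisons of the deposited table, and these values share their groups with the comparisons above. In both genotypes the matrix genes Bgn and Lum and the perivascular receptor Cd248 were much lower at 21 than at 7 dpi. Pdgfrb and Tagln were lower too. Rgs5 and Mcam were within 1.3-fold in ApoE3, and in ApoE4 Rgs5 was within it and Mcam was higher at 21 dpi. Dcn was lower at 21 dpi in ApoE4 and higher in ApoE3, and this difference between the genotypes was not tested.

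In ApoE3, 5 of 9 members were lower at 21 dpi past 1.3-fold and 1 was higher, beside 23.6% and 31.3% of the 10876 genes listed at both time points. Relative to the median of all genes, which was 0.089, 6 were lower and 0 were higher, beside 27.7% and 26.6%. In ApoE4, 7 of 9 were lower and 1 was higher, beside 10.9% and 59% of all genes. Relative to the median, which was 0.53, 8 were lower and 0 were higher, beside 28.6% and 26.1%. In each genotype and on either scale, the share of members that were lower at 21 dpi was above that of all genes.

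Bgn had the largest difference over time in ApoE3, from 294.5 FPKM at 7 dpi to 34.99 at 21 dpi, a log2 difference of -3.04. In ApoE4 it went from 378 to 47.1 FPKM, a log2 difference of -2.98. Lum went from 8.94 to 1.44 FPKM in ApoE3 (-2.02) and from 13.0 to 0.675 in ApoE4 (-3.07). Both proteoglycans were at least 4-fold lower at 21 dpi in each genotype. Cd248 had -1.99 in ApoE3 and -1.96 in ApoE4. Pdgfrb had -0.83 in both genotypes, and Tagln had -0.88 in ApoE3 and -0.68 in ApoE4. The order of these genes by their difference over time was not the same in both genotypes, since Lum came before Bgn in ApoE4.

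Dcn stood apart from Bgn and Lum in ApoE3. There it had 45.7 FPKM at 7 dpi and 61.9 at 21 dpi, a log2 difference of 0.43. In ApoE4 it had 56.6 and 9.37 FPKM, a log2 difference of -2.47. In ApoE4, therefore, all 3 proteoglycans were lower at 21 dpi, whereas in ApoE3 this held for Bgn and Lum alone. Mcam was higher at 21 dpi in ApoE4, with 0.79, and had 0.18 in ApoE3. Rgs5 had -0.32 in ApoE3 and -0.0081 in ApoE4, and Acta2 had 0.068 and -0.57. Relative to the median of all genes, Rgs5 was lower at 21 dpi past 1.3-fold in both genotypes, with -0.41 and -0.53. On that scale Dcn in ApoE3, with 0.34, and Mcam in ApoE4, with 0.26, were within 1.3-fold.

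**Figure D2:**
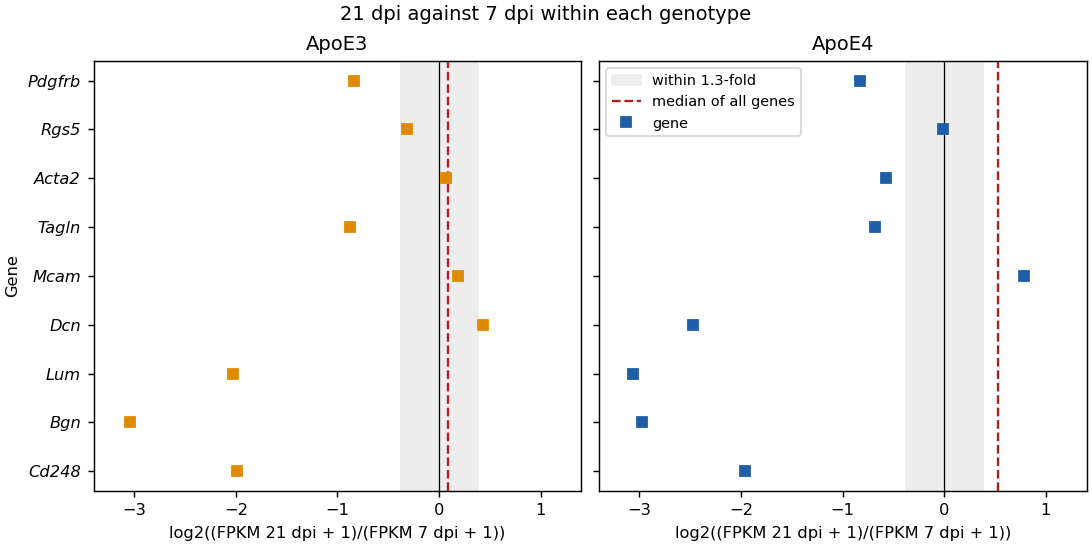
Log2 difference of 21 dpi against 7 dpi (horizontal axis, negative for lower at 21 dpi) for the 9 genes listed at both time points, in ApoE3 (left) and ApoE4 (right). The grey band spans 1.3-fold and the red dashed line is the median of all genes; Bgn lies at -3.04 in ApoE3 and at -2.98 in ApoE4, while Dcn is at 0.43 in ApoE3 and at -2.47 in ApoE4.

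Lists of further genes were compared with the 10. Their counts at 21 dpi are to be read beside the 58.9% of all rows that were lower in ApoE3 and the 2.02% that were higher, or, relative to the median, 8.07% and 7.47%. Among 12 other pericyte genes, 11 were listed at 7 dpi, with 0 past 1.3-fold in either direction and a median log2 difference of -0.15. Notch3, a receptor that maintains mural cells, had 32.4 FPKM in both genotypes, and Vtn (vitronectin) had 36.4 in ApoE3 and 38.9 in ApoE4. The other listed genes spread to both sides, from -0.38 for Tbx18 to 0.28 for Atp13a5. At 21 dpi, 10 were listed, with 5 lower in ApoE3 and 0 higher, and a median of -0.35, or 0.071 relative to all genes. After subtraction of the median 0 were lower and 3 were higher, namely Ndufa4l2 (0.61), Tbx2 (0.46) and Vtn (0.43), of which Ndufa4l2 and Tbx2 were named after their values were seen. Higd1b, which is enriched in pericytes, had 22.4 FPKM in ApoE3 against 39.0 in ApoE4, and Abcc9, a subunit of the pericyte potassium channel, had 18.6 and 25.0. Both were within 1.3-fold relative to the median, with -0.35 for Higd1b and 0.021 for Abcc9.

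Of 13 other contractile genes, 12 were listed at 7 dpi, with 2 lower in ApoE3 past 1.3-fold and 0 higher, and a median of -0.14. The 2 genes, named after their values were seen, were Cnn1, with 1.68 FPKM in ApoE3 against 3.45 in ApoE4, and Actg2, with 0.734 and 1.92. At 21 dpi, 9 were listed, with 5 lower and 1 higher and a median of -0.53, or -0.11 relative to all genes, on which scale 1 was lower and 2 were higher. Smtn (smoothelin) was the 1 higher before the subtraction, with 164 FPKM in ApoE3 against 96.4 in ApoE4. Des (desmin), which skeletal muscle also makes, had 0.943 FPKM in ApoE3 against 3.58 in ApoE4.

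Of 16 other fibroblast genes, 14 were listed at 7 dpi, with 5 lower in ApoE3 past 1.3-fold, 0 higher and a median of -0.35. Col1a1, a chain of type I collagen, had 212 FPKM in ApoE3 against 270.0 in ApoE4, and Col3a1, the chain of type III collagen, had 178 and 243. Of the 14 listed genes, 12 lay below 0 at 7 dpi. At 21 dpi, 13 were listed, with 4 lower and 1 higher, or 0 lower and 5 higher relative to the median. Their median was -0.17, or 0.26 relative to all genes, so its direction depends on the subtraction. Col1a1 had 2.44 FPKM in ApoE3 against 2.27 in ApoE4, and Col3a1 had 2.31 and 1.79. No difference between genotypes as large as that of Dcn was seen in these collagens at 21 dpi.

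Over time, the fibroblast list resembled Bgn and Lum. Of 12 of its genes listed at both time points, 11 were lower at 21 dpi past 1.3-fold and 1 was higher in each genotype. The median log2 difference was -2.23 in ApoE3 and -2.49 in ApoE4. Among 9 other pericyte genes listed at both, 3 were lower and 3 higher in ApoE3, and 1 was lower and 3 higher in ApoE4. Their median was 0.15 in ApoE3 and -0.032 in ApoE4, or 0.066 and -0.56 relative to all genes. Among 9 other contractile genes, 2 were lower in each genotype, 4 were higher in ApoE3 and 5 in ApoE4, and the median relative to all genes was 0.14 in ApoE3 and -0.10 in ApoE4. These counts stand beside 23.6% of all genes lower and 31.3% higher in ApoE3, and 10.9% lower and 59% higher in ApoE4.

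Markers of other cells were set side by side over time as well. Of all genes, 23.6% were lower and 31.3% higher at 21 dpi in ApoE3, and 10.9% lower and 59% higher in ApoE4. Of 6 macrophage markers, 6 were lower at 21 dpi in ApoE3 and 4 in ApoE4, with 0 higher. Their median relative to all genes was -1.65 in ApoE3 and -1.44 in ApoE4. Of 8 Schwann cell markers, 7 were higher and 0 lower in ApoE3, with a median of 1.64, or 1.55 relative to all genes, and 5 were higher and 1 lower in ApoE4, with a median of 0.43, or -0.096 relative to all genes. Of 5 meningeal markers, 3 were lower and 2 higher at 21 dpi in ApoE3, with a median of -0.41, or -0.50 relative to all genes, and 4 were lower and 1 higher in ApoE4, with a median of -0.73, or -1.26 relative to all genes. Endothelial markers, 11 in all, had 2 lower in each genotype, 4 higher in ApoE3 and 7 in ApoE4. Relative to all genes, their median was 0.10 in ApoE3 and 0.034 in ApoE4. Sensory ganglion markers were higher in 2 of 2 in each genotype. Of 8 neural markers, 3 were lower and 3 higher in ApoE3, and 1 was lower and 5 higher in ApoE4. The median of the neural markers relative to all genes was 0.091 in ApoE3 and 0.36 in ApoE4. Of 6 skeletal muscle markers, 5 were lower and 0 higher in ApoE3, with a median of -0.97, and 6 were higher in ApoE4, with a median of 3.50. Their part in the values of the 10 genes over time was not tested.

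Families of single members were examined in the same way. Of 12 other small leucine-rich proteoglycans, 7 were listed at 7 dpi, with 1 lower in ApoE3, 0 higher and a median of -0.11, and 3 at 21 dpi. At 21 dpi, Podn (podocan) had 11.9 FPKM in ApoE3 against 5.77 in ApoE4 and was past 1.3-fold in the direction of Dcn, whereas Fmod (fibromodulin) had 18.8 and 30.7 and was past it in the other direction, though not relative to the median. Tsku (tsukushi) had 23.8 FPKM in ApoE3 against 19.9 in ApoE4. Relative to the median, Tsku too was past 1.3-fold in the direction of Dcn, so that 2 of the 3 listed relatives were higher and 0 lower. Their median was 0.25, or 0.67 relative to all genes, so the few listed relatives did not all share the direction of Dcn.

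Of the ligands and relatives of Pdgfrb, 6 of 6 were listed at 7 dpi with 0 past 1.3-fold, and 5 of 6 were listed at 21 dpi with 5 lower in ApoE3. Pdgfb, the ligand that endothelium presents to pericytes, had 76.5 FPKM in ApoE3 against 95.7 in ApoE4 at 7 dpi, and 78.2 and 103.6 at 21 dpi. Pdgfra, the receptor of fibroblasts and oligodendrocyte precursors, had 85.5 and 95.4 FPKM at 7 dpi, and 42.0 and 58.8 at 21 dpi. Relative to the median, 0 of the 5 were past 1.3-fold at 21 dpi, and their median was -0.12.

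Of 9 other small RGS proteins, 8 were listed at 7 dpi with 1 lower in ApoE3 and 5 at 21 dpi with 3 lower, or 1 lower and 1 higher relative to the median, and Rgs3, the highest, had 361 FPKM in ApoE3 against 343 in ApoE4 at 7 dpi. Of 6 relatives of Fap, the dipeptidyl peptidases and Prep, 5 were listed at each time point, with 1 higher at 7 dpi and 2 lower at 21 dpi, or 0 in either direction relative to the median. Dpp4, the relative next to Gcg and Fap on chromosome 2, was listed at neither. Cd93, Clec14a and Thbd, the relatives of Cd248, are made mainly by endothelium, and 0 of the 3 were past 1.3-fold at 7 dpi. At 21 dpi Thbd, with 4.24 FPKM in ApoE3 against 2.53 in ApoE4, was the 1 past it, and relative to the median 2 of the 3 were higher. Of Alcam, Bcam and the laminin chain Lama4, a ligand of Mcam, 0 were past it at 7 dpi, whereas at 21 dpi Bcam was higher in ApoE3 and Alcam and Lama4 were lower. With the median subtracted, Bcam was higher, and Alcam (-0.26) and Lama4 (0.0061) were within 1.3-fold.

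Markers of other cells that could contribute to the 10 genes were given the same treatment. Endothelial markers showed little at 7 dpi, with 13 of 13 listed, 1 lower in ApoE3 past 1.3-fold, 0 higher and a median of -0.042. Their summed level was 1015 FPKM in ApoE3 against 976 in ApoE4, with Ly6c1 as the most abundant. At 21 dpi, 11 of 13 were listed, with 2 lower, 0 higher and a median of -0.31, or 0.11 relative to all genes, 1 lower and 2 higher on that scale, and a summed level of 710 and 871 FPKM with Slco1a4 as the most abundant. Emcn, with 11.2 FPKM in ApoE3 against 25.0 in ApoE4, was past 2-fold. The median at 21 dpi, relative to all genes, was the same as that of the 9 members to the second decimal.

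Schwann cell and sensory ganglion markers were far higher in ApoE3 at 21 dpi, in the same direction as Dcn, though the summed level of the ganglion markers was not. Of 12 Schwann cell markers, 11 were listed, with 9 higher in ApoE3 past 1.3-fold, 1 lower and a median of 1.42, or 1.85 relative to all genes. The summed level was 3842 FPKM in ApoE3 against 1834 in ApoE4, with Pmp22 as the most abundant. Of 10 sensory ganglion markers, 9 were listed, with 8 higher in ApoE3, 0 lower and a median of 1.48, or 1.91 relative to all genes. The summed level was 808 FPKM in ApoE3 against 847 in ApoE4, with Calca, the most abundant, at 702 and 830. Trpv1 and Mrgprd were listed at 0 in ApoE4.

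At 7 dpi, the median of each list was lower, but fewer of its genes were listed. Of the Schwann cell markers 8 were listed, with 1 higher in ApoE3, 2 lower, a median of -0.0028 and a summed level of 1188 and 1172 FPKM. Of the sensory ganglion markers 3 were listed, with 2 higher, 0 lower, a median of 0.48 and a summed level of 484 and 364 FPKM. Only 2 of them, Calca and Isl1, were listed at both time points. Calca had a log2 difference of 0.48 at 7 dpi and -0.24 at 21 dpi, and Isl1 had 0.48 and 1.05. The ganglion medians of the time points therefore cover different genes and cannot be compared. The part of peripheral nerve or root tissue in the level of Dcn at 21 dpi was not tested.

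Meningeal markers lay mostly on the same side at 21 dpi. Of 12, 7 were listed, with 5 higher in ApoE3 past 1.3-fold and 1 lower, and a median of 0.53, or 0.95 relative to all genes. Slc6a13, a transporter of meningeal fibroblasts, had 11.2 FPKM in ApoE3 against 5.24 in ApoE4, and Igf2, a growth factor of the meninges, had 126 and 87.4. The lower one was Spp1, which macrophages also make and which was the most abundant, so that the summed level was 1062 FPKM in ApoE3 against 1906 in ApoE4. At 7 dpi, 8 were listed, with 2 higher, 0 lower, a median of 0.029 and a summed level of 1214 and 1027 FPKM. Slc47a1, with 6.61 FPKM in ApoE3 against 0.903 in ApoE4, was past 2-fold. The part of the meninges in the level of Dcn or Lum was not tested.

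Skeletal muscle markers went the other way at 21 dpi, with 7 of 12 listed, 7 lower in ApoE3 and a median of -4.27, or -3.85 relative to all genes. The summed level was 33.6 FPKM in ApoE3 against 713 in ApoE4, Tnnt3 was the most abundant, and Myh4 was listed at 0 in ApoE3. At 7 dpi, 8 were listed, with 2 higher, 1 lower, a median of 0.23, a summed level of 168 and 133 FPKM and Pvalb as the most abundant. Tagln and Mcam were lower in ApoE3 at 21 dpi, and Acta2 was higher. The part of muscle tissue in these values was not tested.

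Macrophage and microglia markers were lower in ApoE3 at 21 dpi, with 6 of 10 listed and 6 lower, or 3 lower relative to the median, a median of -0.86, or -0.43 relative to all genes, and a summed level of 523 and 987 FPKM. At 7 dpi, 8 were listed, with 1 lower, 0 higher, a median of -0.22 and a summed level of 6712 and 8706 FPKM, and Lyz2 was the most abundant at both time points. Markers of the neural tissue had a median of 0.24 at 7 dpi, with 9 of 10 listed, 1 higher and 0 lower, and of -0.69 at 21 dpi, or -0.27 relative to all genes, with 9 of 10 listed and 8 lower, or 2 lower relative to the median. Their summed level, most of it Mbp, was 142479 and 147931 FPKM at 7 dpi, and 233815 and 333835 at 21 dpi. At 7 dpi the median of the neural markers was above 0 and that of the 10 genes below it, though Mbp and the summed level of the neural markers were lower in ApoE3. The part of the cell makeup of the segments in the differences of the 10 genes was not tested.

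**Figure D3:**
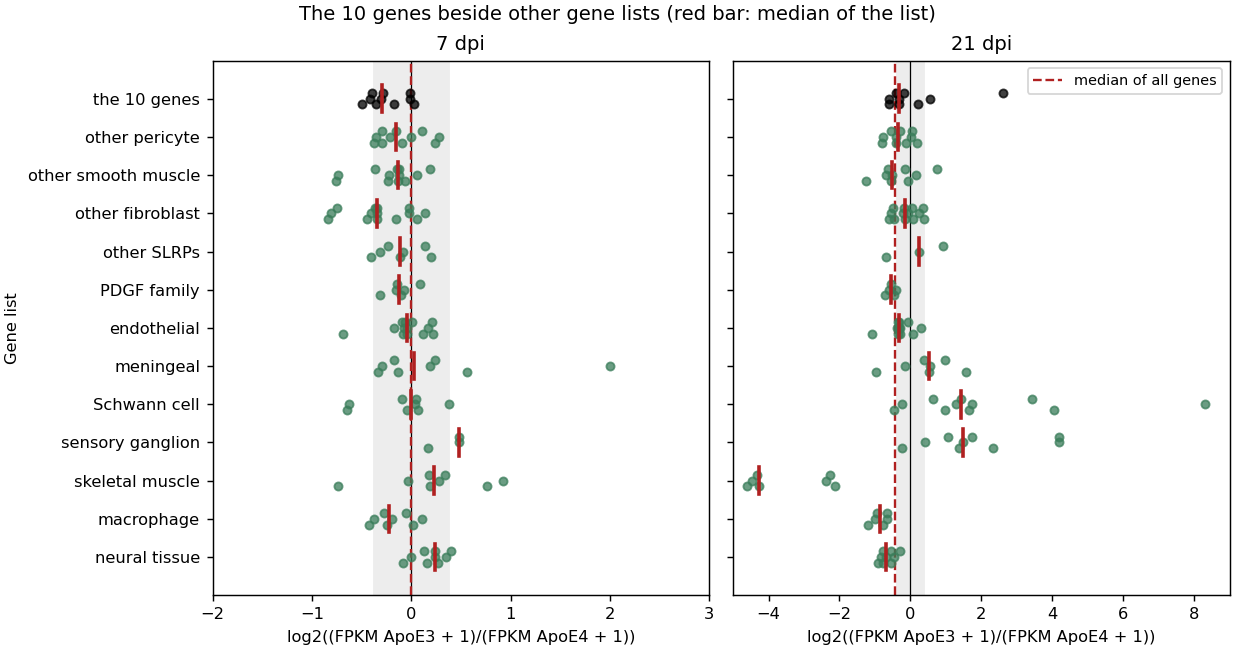
Log2 difference between genotypes (horizontal axis, positive for higher in ApoE3, with a wider range at 21 dpi) for each listed gene of the 10 (black) and of 12 other lists (green), at 7 dpi (left) and 21 dpi (right). Red bars are list medians, the grey band spans 1.3-fold and the dashed line is the median of all genes; at 21 dpi Dcn, at 2.60, lies in the range of the Schwann cell and sensory ganglion markers and outside that of the other fibroblast genes.

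Finally, the genes whose pattern over the 4 groups was most like that of each member were identified. Likeness was the root mean square difference of log2(FPKM + 1) over the 4 groups, each gene centred on its own mean, among genes listed at both time points with a mean of at least 10 FPKM. For Dcn the nearest gene was Mfap5, a protein of elastic microfibrils, at 0.21. Mfap5 had 9.06 FPKM in ApoE3 against 14.7 in ApoE4 at 7 dpi, and 19.2 and 1.97 at 21 dpi. The next genes, Islr at 0.54 and Oprm1 at 0.58, were further away. This distance grows with the size of a gene's differences, so it cannot be compared between members. With 4 values per gene, many genes can lie close to a common pattern by their shared groups alone.

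For Acta2 the nearest genes were Tgfb1i1 (0.048), Stard13 (0.059) and Cav1 (0.060). Tgfb1i1, a focal adhesion protein, had 56.6 FPKM in ApoE3 against 73.1 in ApoE4 at 7 dpi, and 60.2 and 47.1 at 21 dpi. For Lum they were Tnfsf13 (0.18), Mgp (0.22) and the matrix protease Mmp2 (0.24), and for Bgn they were Tnfaip2 (0.076), Top2a (0.095) and Plin2 (0.11). For Cd248 they were Fnip2 (0.059), Cxcr4 (0.063) and Mfap2 (0.067), and for Tagln they were Hcls1 (0.032), Ttc7 (0.037) and Abi3 (0.042). Among the genes near Pdgfrb were Shc1 (0.037) and Glis3 (0.038). Rgs5 was nearest to Hnrnpk (0.0026), Dnajc14 (0.013) and Ptn (0.017), and Mcam to Smim10l1 (0.013), Mfap1b (0.016) and Rbm48 (0.018).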

How the data were processed

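RNA-seq of lesion segments was analysed for 4 groups, each with 1 value per gene. The authors down-sampled all libraries to the same number of single-end reads and, per the submitters' processing notes, used STAR 2.5.4b, Bowtie2, SAMtools 0.1.7 and Cuffdiff 1.3.0. The genome build and annotation are not given in the sources used here. The deposited values are FPKM to which the authors had added 1, and this 1 was subtracted. Their p-values, q-values, fold changes and list of differentially expressed genes were not used. Counting error is not given, as FPKM keep no read numbers.

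The minimum of 1.3-fold and the pseudocount of 1 FPKM follow the study's methods. A value relative to the median is the log2 difference minus the median over genes with a mean of at least 1 FPKM. Symbols on 2 rows (2 at each time point) were left out of values for single genes. Mouse symbols come from RefSeq (GRCm38.p6), in which 25341 of 25601 rows matched, and promoters from the RefSeq table of that build.

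The 10 genes and the 16 other lists were chosen with earlier results of these data known. All 10 are named. Of each other list, at most the 4 members with the highest mean FPKM and any past 2-fold were to be named, and which of these were printed was decided after their values were seen. Genes named outside this rule were Ndufa4l2, Tbx2, Tbx18, Atp13a5, Cnn1, Actg2, Prep and the neighbours of Dcn, Lum and Fap. The 3 most alike genes are given for each member listed at both time points, except for Pdgfrb, where 1 is not reported here. The alternatives were a pseudocount of 0.1, subtraction of the median, a mean of at least 1 FPKM, minimum folds of 1.5 and 2 and, chosen after seeing the data, reading the genotypes by column number. Python 3.11.15, numpy 2.4.6, pandas 2.3.3 and matplotlib 3.10.9 were used, and the counts were checked on simulated data.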

Additional observations from a re-analysis of the deposited data

Results flagged for a closer look

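For 3 of the 9 genes listed at both time points, the difference between ApoE3 and ApoE4 had opposite directions at 7 and 21 dpi. This is under the 52.2% of 10876 genes with opposite directions, so the count is not a result about these genes; all 3 were below 0 at 7 dpi and above it at 21 dpi, as were 3.2% of all genes. The log2 difference at 21 dpi minus that at 7 dpi was 2.90 for Dcn, 1.04 for Lum and 0.64 for Acta2. With 1 value per group these differences between time points were not tested. Lum was past 1.3-fold at both time points, Dcn at 21 dpi only and Acta2 at 7 dpi only, or at both after the median was subtracted. After that subtraction, Pdgfrb, Rgs5, Bgn and Cd248 were also below 0 at 7 dpi and above it at 21 dpi, all within 1.3-fold, with Bgn at 0.0039 and Rgs5 at 0.10 at 21 dpi. These 7 of 9 stand beside 51.8% of all genes with opposite directions on that scale, and 25.6% that went from below to above 0. Under the second reading of the genotypes each direction would be the opposite, and each gene would still differ between the time points.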

How the results depend on the processing

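With a minimum of 1.5-fold or of 2-fold, 0 of the 10 genes were lower in ApoE3 at 7 dpi, in place of 3, beside 1.51% and 0.255% of all genes, and 1 of 9 (Dcn) was higher at 21 dpi, in place of 2, beside 1.35% and 0.75%. With 2-fold, 0 were lower at 21 dpi, beside 3.77%, and 3 in ApoE3 and 4 in ApoE4 were lower at 21 than at 7 dpi, beside 7.25% and 4%. The 1 member higher at 21 than at 7 dpi in ApoE3 was lost at 1.5-fold (0, beside 20.4% of all genes) and 2-fold (0, beside 6.1%), and that in ApoE4 at 2-fold (0, beside 21.3%). Subtraction of the median left 0 members lower in ApoE3 at 21 dpi, turned the median of the 9 genes to 0.11 and Bgn to 0.0039, and left 0 members higher at 21 than at 7 dpi in either genotype. Reading the genotypes by column number was chosen after seeing the data. It gave 3 genes higher and 0 lower in ApoE3 at 7 dpi, and 3 higher and 2 lower at 21 dpi. The medians were then 0.29 at 7 dpi and 0.32 at 21 dpi. With this reading, 7 genes in ApoE3 and 5 in ApoE4 were lower at 21 than at 7 dpi, since it exchanges the genotypes. For the other alternatives the cause was not tested. With a pseudocount of 0.1, 16 of the 19 log2 differences of single members moved by 0.1 or less, and 3 (Cd248, Dcn and Lum at 21 dpi) moved by more. Cd248 then passed the threshold, so that 4 of 9 genes were lower in ApoE3 at 21 dpi. The share of all genes was not computed at this setting, so the count is not a result about the members. With a pseudocount of 1 that share was 58.9%. The minimum mean of 1 FPKM altered no count or median of the members. No paired analysis was possible because each group has 1 value per gene. FPKM keep no read numbers, so the precision of low values, such as those of Lum and Cd248 at 21 dpi, is not known.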
